A study of Homo sapiens with 6 samples.

Results

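The 10 genes described here encode the E and D cyclins, their kinases and 2 regulators of cyclin E activity and turnover. They are CCNE1 and CCNE2 (cyclins E1 and E2), CDK2, CCND1, CCND2 and CCND3 (cyclins D1, D2 and D3), CDK4, CDK6, CDC25A and FBXW7. All 10 were found by Entrez ID among the 28395 genes of the count table, and all 10 were among the 13373 that passed the low-count filter. RNA came from TC28a2 cells, an immortalised human chondrocyte line, 48 hours after transfection with a control vector (3 libraries) or an FAP overexpression vector (3 libraries). FAP stands for fibroblast activation protein, a serine protease of the cell membrane. Every library thus comes from transfected cells of this 1 line, and the share of cells that took up the vector is not given in the sources used here. The genes were chosen around CCNE2 because it was among the genes that differed between the vectors, so their values in that comparison are given as a description, without a test.

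In the G1 phase of the cell cycle, D cyclins respond to growth signals and activate CDK4 and CDK6, which phosphorylate the retinoblastoma protein RB. This releases E2F transcription factors, and E2F proteins drive transcription of the E cyclins, which bind CDK2 and carry the cell into S phase. The phosphatase CDC25A removes inhibitory phosphates from CDK2, and FBXW7 is the receptor by which an SCF ubiquitin ligase recognises phosphorylated cyclin E and marks it for destruction.

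Library totals ran from 5736056 to 13839743 gene counts. Their means were 9205660 with the control vector and 11067600 with the FAP vector (p = 0.5 in an exact two-sided permutation test whose smallest p is 0.1). FAP was at 223, 225 and 351 CPM in FAP replicates 1, 2 and 3, against 0, 1.20 and 0.396 CPM in the controls, so every library matched its label. CPM is a gene's count scaled to the size of its library, here after TMM scaling, which also corrects for differences in composition. The 0 counts of control replicate 1 allow up to 3 counts, and 1 count in that library is 0.183 CPM. FAP replicate 3 differed from the other FAP replicates more than those did from each other, with a chi-square per degree of freedom over genes of 16.2 and 15.5, against 5.74 between those 2 and 5.21 to 6.78 between controls. Of 11 chondrocyte markers 1, the transcription factor SOX9, passed the low-count filter, and 9, among them ACAN and COL2A1, had at most 15 counts in any library. The 7 fibroblast and mesenchymal markers all passed. They summed to 2180 to 2697 CPM with the control vector and 2401 to 2664 CPM with the FAP vector. Of the 5 epithelial markers only KRT8 and KRT18 passed, and EPCAM, CDH1 and KRT19 had at most 4 counts in any library. The epithelial sums of 1313 to 1508 and 1408 to 1540 CPM thus came nearly all from KRT8 and KRT18. Leukocyte markers summed to 16.0 to 17.9 and 15.8 to 18.3 CPM. CD68 alone had 14.0 to 16.9 CPM over all libraries, while PTPRC had at most 4 counts in any library. The 4 endothelial markers summed to 0.731 to 0.983 CPM with the control vector and 1.84 to 2.55 CPM with the FAP vector, with CDH5 at 0 counts throughout. The chondrocyte markers summed to 26.7 to 35.6 and 34.4 to 44.9 CPM. The part of these marker levels in the results was not tested. The labels do not say whether replicates were separate cultures, so the errors given may be those of technical repeats.

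The promoter windows of CDC25A and CCNE1 are shown with the E2F core motif marked. The motif was searched on both strands in 4 forms, namely the form TTCCCGC, the form TTCGCGC, the form TTGCCGC and the form TTGGCGC, in the RefSeq windows of GRCh38.p14, which hold 250 bases before and 50 bases after a gene's start. Windows were matched for 6 of the 10 genes (CDC25A, FBXW7, CCND3, CDK6, CDK4 and CCNE1, 12 windows in all). None was matched for CCNE2, CDK2, CCND1 or CCND2, so nothing is said of the motif at CCNE2. Capitals mark matches, and sequences run 5′ to 3′ on the strand of the gene.
CDC25A, chr3:48188368-48188667, minus strand: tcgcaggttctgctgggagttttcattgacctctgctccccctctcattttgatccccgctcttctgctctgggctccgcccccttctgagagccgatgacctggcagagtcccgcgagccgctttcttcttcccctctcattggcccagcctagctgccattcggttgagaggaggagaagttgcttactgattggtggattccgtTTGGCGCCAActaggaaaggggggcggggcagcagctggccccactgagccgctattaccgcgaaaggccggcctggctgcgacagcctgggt
CCNE1, chr19:29811741-29812040, plus strand: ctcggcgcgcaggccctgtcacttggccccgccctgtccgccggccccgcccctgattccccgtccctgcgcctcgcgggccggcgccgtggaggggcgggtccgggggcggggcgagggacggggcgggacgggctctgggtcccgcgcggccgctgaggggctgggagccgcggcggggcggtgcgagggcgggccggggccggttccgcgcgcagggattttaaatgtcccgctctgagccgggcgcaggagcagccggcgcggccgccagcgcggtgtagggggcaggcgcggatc
The CDC25A window held 2 matches to TTGGCGC, one on each strand, beginning 43 and 40 bases before the start and overlapping each other. The CCNE1 window, which is 81.0% G or C, held none of the 4 forms, and neither did the 10 windows of FBXW7, CCND3, CDK6 and CDK4. The motif was present in 13.0% of all 35116 promoter windows and in 19.0% of the 15342 windows of tested genes. It was present in 67.6% of 37 windows of a list of E2F target genes that act at the entry into S phase. A match is a description of these letters and not a site.

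Cyclin E2 transcripts were about 2-fold lower with the FAP vector than with the control vector. CCNE2 (Entrez 9134; GRCh38.p14 chromosome 8, 94880224 to 94896693) was at 95.5, 80.4 and 82.0 CPM in control replicates 1, 2 and 3, and at 44.5, 47.1 and 34.3 CPM in FAP replicates 1, 2 and 3. All 3 FAP libraries lay well below all 3 controls. The lowest was FAP replicate 3. The means were 86.0 ± 8.31 and 42.0 ± 6.78 CPM (SD, n = 3 each), a log2 fold change of -1.03 (SE 0.12, 95% interval -1.29 to -0.77). Without FAP replicate 3, the library that stood apart, the log2 fold change was -0.90. The counts behind these values were 279 to 1036 per library. In a bulk measurement such as this, fewer cells in the phase that makes the transcript and less of it per cell cannot be told apart.

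**Figure D1:**
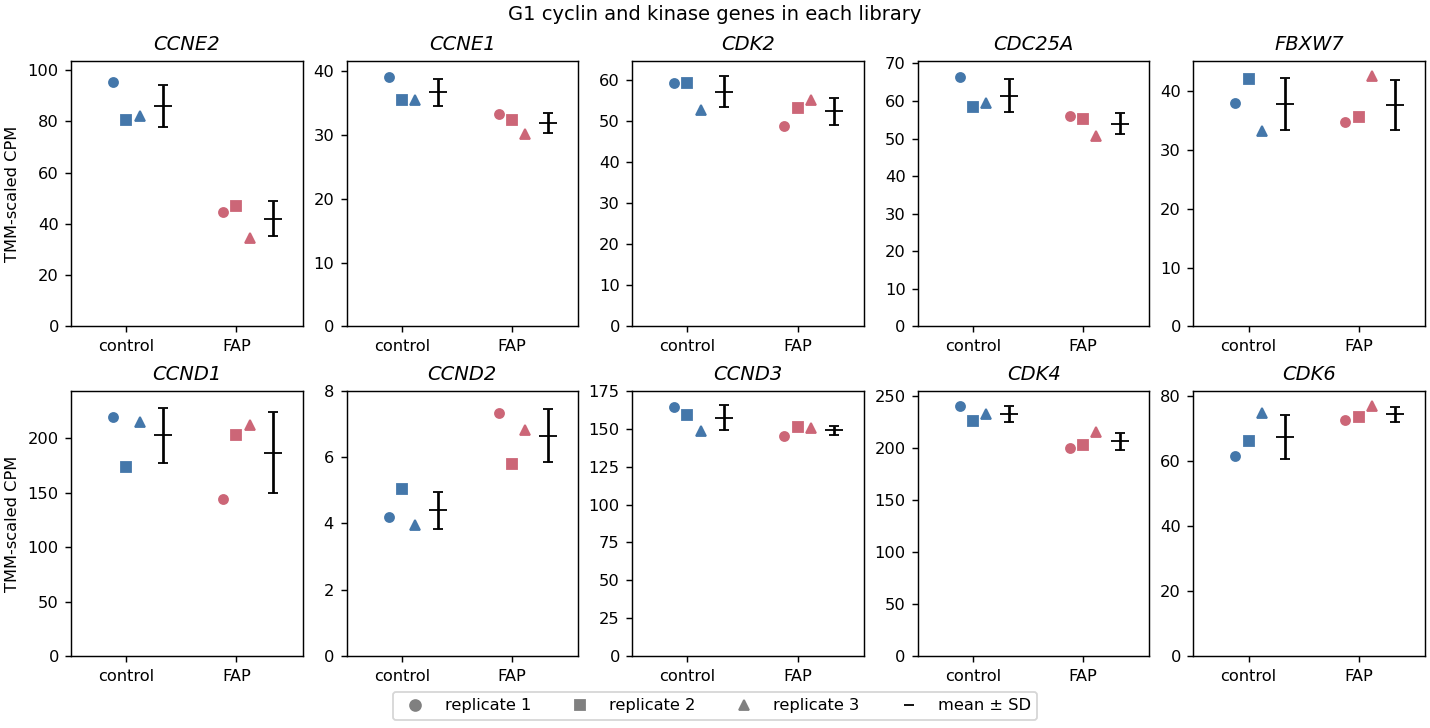
TMM-scaled CPM (y axis, from 0) of the 10 genes in the control and FAP libraries (x axis). Symbols are single libraries by replicate number, and black bars are mean ± SD, n = 3. CCNE2 runs from 80.4 to 95.5 CPM with the control vector and from 34.3 to 47.1 CPM with the FAP vector, and the other genes lie closer together.

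The paralogue CCNE1, which encodes cyclin E1 (Entrez 898; chromosome 19, 29811991 to 29824312), was at 39.1, 35.4 and 35.5 CPM with the control vector and 33.2, 32.3 and 30.2 CPM with the FAP vector. The FAP libraries again lay below the controls, by a much smaller amount. Its log2 fold change was -0.20 (SE 0.12, 95% interval -0.45 to 0.05). Its spread within groups, a coefficient of variation of 5.34%, was close to the 5.69% that counting alone gives at its counts. For CCNE2 the values were 13.3% and 4.37%.

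The counts of the 2 E cyclins within a library give their balance free of any scaling between libraries. CCNE2 had 2.44, 2.27 and 2.31 counts per CCNE1 count in control replicates 1, 2 and 3, and 1.34, 1.46 and 1.14 in the FAP replicates. The groups did not overlap, and the mean ratios were 2.34 ± 0.0900 and 1.31 ± 0.164 (SD, n = 3). CCNE2 thus made up 69.4% to 71.0% of the E cyclin counts in controls and 53.2% to 59.4% in FAP libraries. Against its kinase CDK2, CCNE2 had 1.35 to 1.61 counts per CDK2 count in controls and 0.621 to 0.912 in FAP libraries. The ratio of CCNE1 to CDK2 overlapped between the groups, at 0.596 to 0.671 and 0.546 to 0.680.

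**Figure D2:**
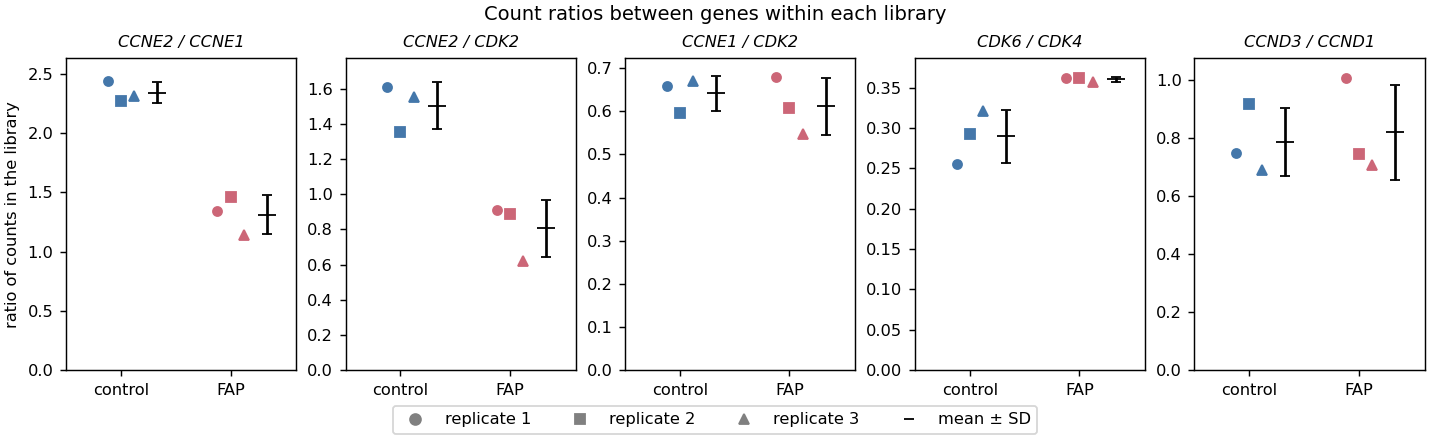
Ratio of the counts of 2 genes within each library (y axis, from 0) for 5 pairs, by vector (x axis). Symbols are single libraries, and black bars are mean ± SD, n = 3. The ratio of CCNE2 to CCNE1 is 2.27 to 2.44 in controls and 1.14 to 1.46 in FAP libraries, while that of CCNE1 to CDK2 overlaps between the vectors.

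Of the proteins that act on cyclin E, the kinase and the phosphatase had log2 fold changes of -0.12 and -0.18 and the ligase receptor had 0.00. CDK2 (Entrez 1017; chromosome 12, 55966830 to 55972789), the catalytic partner of the E cyclins, had 52.9 to 59.4 CPM with the control vector and 48.8 to 55.2 CPM with the FAP vector, which overlap. Its log2 fold change was -0.12 (SE 0.11, 95% interval -0.35 to 0.11). CDC25A (Entrez 993; chromosome 3, 48157146 to 48188417) was at 66.5, 58.3 and 59.4 CPM with the control vector and 56.0, 55.3 and 50.8 CPM with the FAP vector. These groups did not overlap but nearly met, and the log2 fold change was -0.18 (SE 0.11, 95% interval -0.41 to 0.04). FBXW7 (Entrez 55294; chromosome 4, 152320544 to 152536092) ranged from 33.3 to 42.2 CPM with the control vector and from 34.8 to 42.5 CPM with the FAP vector. Its mean was 37.8 CPM with the control vector and 37.7 CPM with the FAP vector, a log2 fold change of 0.00 (SE 0.13, 95% interval -0.26 to 0.27).

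Among the D cyclins, the 2 abundant transcripts overlapped between the vectors and the rare one, CCND2, lay higher in each FAP library than in any control. CCND1 (Entrez 595; chromosome 11, 69641156 to 69654474), the D cyclin best known as a growth factor target, was at 220, 174 and 215 CPM with the control vector and 144, 203 and 213 CPM with the FAP vector. FAP replicate 1 was the low library, and the log2 fold change was -0.11 (SE 0.13, 95% interval -0.38 to 0.15). Without that library it was 0.04. CCND1 had the widest spread within groups of the 10 genes, a coefficient of variation of 16.5% where counting alone gives 2.46%. CCND3 (Entrez 896; chromosome 6, 41934933 to 42050035), another D cyclin, lay between 145 and 165 CPM in all 6 libraries, with a log2 fold change of -0.08 (SE 0.09, 95% interval -0.28 to 0.12).

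CCND2 (Entrez 894; chromosome 12, 4273762 to 4305353) was at 4.20, 5.03 and 3.96 CPM with the control vector and 7.34, 5.79 and 6.82 CPM with the FAP vector. Every FAP library was above every control. The log2 fold change of 0.58 (SE 0.25, 95% interval 0.06 to 1.11) rests on 23 to 92 counts per library, for which counting alone gives a coefficient of variation of 14.7%. CCND2 made up 1.08% to 1.48% of D cyclin counts in controls and 1.61% to 2.47% in FAP libraries. CCND1 held 51.5% to 58.5% and 48.6% to 57.5%, which overlap. The ratio of CCND2 to CCND1 counts also overlapped, at 0.0184 to 0.0289 in controls and 0.0284 to 0.0508 in FAP libraries.

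The kinases of the D cyclins had small log2 fold changes of opposite sign. CDK4 (Entrez 1019; chromosome 12, 57747727 to 57752310) was at 241, 225 and 233 CPM with the control vector and 200, 203 and 215 CPM with the FAP vector. The groups did not overlap, and the log2 fold change was -0.17 (SE 0.09, 95% interval -0.37 to 0.02). CDK6 (Entrez 1021; chromosome 7, 92604921 to 92836573) was at 61.4, 66.0 and 74.6 CPM with the control vector and 72.5, 73.4 and 76.8 CPM with the FAP vector. Control replicate 3 reached into the FAP range, and the log2 fold change was 0.14 (SE 0.11, 95% interval -0.08 to 0.36). Within libraries, CDK6 had 0.255, 0.293 and 0.321 counts per CDK4 count in controls and 0.362, 0.361 and 0.357 in FAP libraries. These ratios did not overlap between the vectors. The ratios of CCND1 and of CCND3 to CDK4, and of CCND3 to CCND1, overlapped. The share of gene pairs whose ratios do not overlap was not computed, so nothing is read from the ratio of CDK6 to CDK4.

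Set side by side, 7 of the 10 genes had negative log2 fold changes and 3 had positive ones, with a median of -0.12, against 0.00 over all tested genes. Without CCNE2, the other 9 lay between -0.20 and 0.58. Of the 10, CCNE2 was the 1 gene called lower and none was called higher by edgeR's quasi-likelihood test at an adjusted p under 0.05 over all genes. That test called 0.224% of all tested genes (0.127% lower and 0.0972% higher), and since the genes were chosen around this call, nothing is read from the count. In 5 of the 10 the groups did not overlap (CCNE2, CCNE1, CDC25A and CDK4 lower, CCND2 higher), as in 16% of all tested genes. The 95% intervals of the other 9 reached down to -0.45 and up to 1.11, so that changes of 2-fold lie outside them except for a rise of CCND2. An interval that includes 0 does not show that a gene was level.

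**Figure D3:**
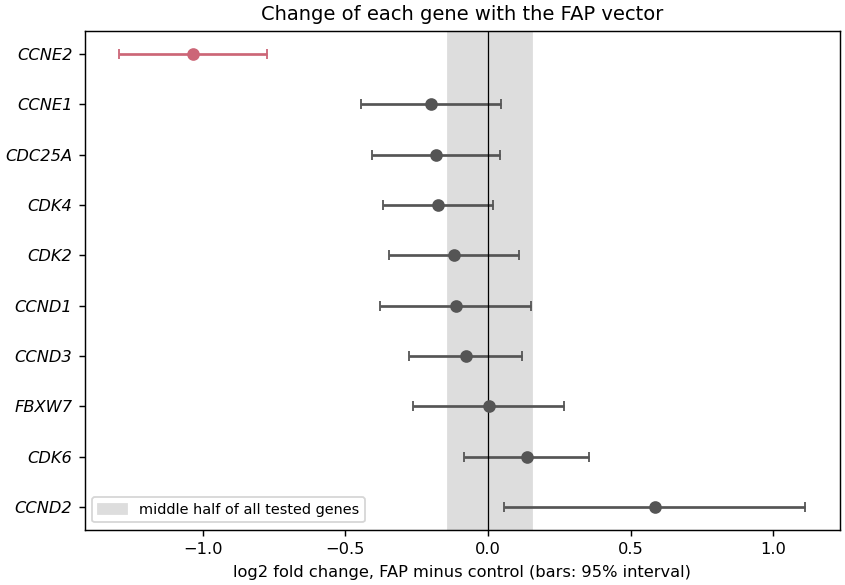
Log2 fold change of FAP minus control (x axis) of the 10 genes (y axis), with 95% intervals from edgeR's fit. The grey band spans the middle 50% of all tested genes, -0.14 to 0.15. CCNE2, in red, lies at -1.03, and the other genes between -0.20 and 0.58.

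In control libraries, which do not enter the choice of genes by themselves, CDK4, CCND3 and CCND1 were the most abundant of the 10 transcripts and CCND2 was the least. Levels were compared as CPM per kilobase of the longest GENCODE v29 transcript. CDK4 was highest at 112 ± 3.66 CPM per kb (SD, n = 3), followed by CCND3 at 65.7 ± 3.46 and CCND1 at 47.1 ± 5.83 CPM per kb. CCNE2 was the fourth at 25.8 ± 2.50 CPM per kb, above CDK2 at 22.0 ± 1.45 and CCNE1 at 17.9 ± 1.03 CPM per kb. CDC25A followed at 16.2 ± 1.17, FBXW7 at 6.69 ± 0.783, CDK6 at 5.80 ± 0.580 and CCND2 at 0.678 ± 0.0864 CPM per kb. The control ranges of neighbours in this order overlapped for CCNE1 and CDC25A and for FBXW7 and CDK6, and for no other pair of neighbours. In FAP libraries CCNE2 was at 12.6 ± 2.04 CPM per kb and stood at rank 7, below CDK2, CCNE1 and CDC25A. DRUG-seq usually starts cDNA at the poly(A) tail, so counts may not grow with transcript length. Without the division by length CCNE2 was also the fourth in controls, while CDK6, whose longest transcript is 11612 bases, was at rank 5 in place of rank 9. In FAP libraries CCNE2 was at rank 7 either way, but without the division it was above CCNE1, at 42.0 against 31.9 CPM.

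**Figure D4:**
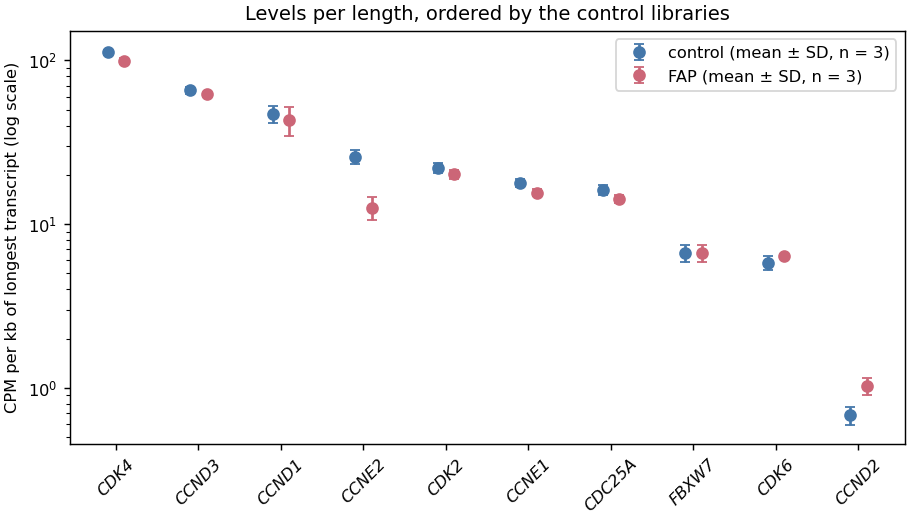
Level per length (y axis, CPM per kb of the longest transcript, log scale) of the 10 genes (x axis) in control and FAP libraries, mean ± SD, n = 3. Genes are ordered by the controls: CCNE2 stands at rank 4 there with 25.8 CPM per kb and at rank 7 in the FAP libraries with 12.6 CPM per kb, below CCNE1, which without the division by length is the lower of the 2.

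Variation between libraries of the same vector does not use the difference between vectors. With each group's mean removed, CCNE2 correlated with CDC25A (Pearson r = 0.89) and with CCNE1 (r = 0.88) over the 6 libraries, and CCNE1 with CDC25A at r = 0.99. The 3 genes were highest in control replicate 1 among controls and lowest in FAP replicate 3. With the members outside these 3 that averaged 10 CPM or more, CCNE2 had r = -0.22 (CDK2), -0.16 (CCND1), 0.24 (CCND3), -0.33 (CDK4), -0.57 (CDK6) and -0.59 (FBXW7). Other pairs of members had values of like size: CDK2 with CCND3 (r = 0.87) and with FBXW7 (r = 0.86), and CCND3 with CDK6 (r = -0.82). The spread of CCNE1 within groups, 5.34%, was no larger than the 5.69% that counting alone gives, and that of CDC25A was 6.32% against 4.39%. The correlated values share their libraries, their depth and their scaling, and are given as a description. No shared regulation is read from them.

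The genes most like CCNE2 were sought among 8591 other genes that averaged 10 CPM or more. Genes with LOC, LINC, antisense or clone names, or with no matched symbol, were left out of these. Over the 6 libraries as they stand, they were AVPI1 (r = 0.998), the ceramide enzymes CERS2 (r = 0.995) and DEGS1 (r = 0.994), NUBP1, which acts in iron-sulfur cluster assembly (r = 0.992), and MRPS9, a protein of the mitochondrial ribosome (r = 0.992). Of these NUBP1 had a log2 fold change as large as that of CCNE2 (-1.07), and the others lay between -0.48 and -0.13. With group means removed they were DSEL, PALS2, ZNF598, CAPN2 and EIF4EBP1, with r from 0.993 to 0.996 and log2 fold changes from -0.27 to 0.14. No gene was in both sets of 5. Each set holds the highest of 8591 correlations over 6 libraries. The first set also reflects the difference between vectors by which CCNE2 was chosen, so no link to CCNE2 is read from it.

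CCNE2 shares exonic sequence with a neighbour on the other strand, and no strand setting of the counting is given in the sources used here. The 3′ ends of CCNE2 (minus strand) and INTS8 (plus strand, a subunit of the Integrator complex) overlap by 1523 bases in RefSeq, and 37.0% of the exonic bases of CCNE2 in GENCODE v29 are also exonic in INTS8. These shared bases lie 348 to 1976 bases from the 3′ end of CCNE2, in 3 of its 8 annotated transcripts. INTS8 was at 19.4 CPM with the control vector and 21.7 CPM with the FAP vector, a log2 fold change of 0.18 (SE 0.14, edgeR adjusted p = 0.717). NDUFAF6, whose annotated span overlaps that of CCNE2 without sharing an exonic base, was at 20.7 and 21.0 CPM (log2 fold change 0.01). TP53INP1, DPY19L4 and PLEKHF2, the nearest other tested coding genes, had log2 fold changes of 0.04, -0.11 and -0.04. None of these 5 neighbours was called, against 0.224% of all tested genes. Whether reads from INTS8 entered the CCNE2 counts was not tested.

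CDK4 shares 43.2% of its exonic bases, including its 3′ end, with TSPAN31 on the other strand (CDK4 at 233 and TSPAN31 at 3.52 CPM with the control vector), and CCND1 shares 10.3% with LTO1 (13.1 CPM). CDK2 and CCND2 share 14.5% and 13.8% with annotated genes that were not among those tested. How such shared reads were counted was not tested. CCNE1, CDC25A, CDK6 and FBXW7 share no more than 1.14% with any other annotated gene.

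Genes around these cyclins and kinases were taken from 8 lists chosen by function, 107 genes in all, of which 104 were tested. None was called by edgeR in either direction, against 0.224% of all tested genes. At so low a share a list of this size need hold no call. By the same test 14 of the 104 (13.5%) had an unadjusted p under 0.05, as had 9.91% of all tested genes. DESeq2 and limma-voom also called none. The groups did not overlap in 18 (17.3%) with FAP libraries above and in 5 (4.81%) with FAP libraries below, against 7.96% and 7.99% of all tested genes.

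Of the 13 RB and E2F proteins, 7 had negative values (median -0.03). E2F1, an activator of the family, was at 143, 136 and 127 CPM with the control vector and 118, 122 and 104 CPM with the FAP vector. All FAP libraries lay below all controls, as in 7.99% of all tested genes. The log2 fold change was -0.23 ± 0.10 (SE), with an adjusted p = 0.448 by edgeR. E2F8, a repressor of the family, was at 0.39 (adjusted p = 0.540). Among 29 tested E2F target genes of the entry into S phase, 17 were positive and 12 negative, between -0.20 and 0.31 (median 0.04). In 7 all FAP libraries lay above all controls and in 1 below, where 7.96% and 7.99% of all tested genes did. GINS1, a part of the replicative helicase, was at 0.31 (adjusted p = 0.398), and MCM6, another part of it, was at 0.21 (adjusted p = 0.510).

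Of the 7 CDK inhibitors, CDKN2B, an inhibitor of CDK4 and CDK6, was at 4.93, 4.48 and 6.25 CPM with the control vector and 11.6, 9.81 and 6.37 CPM with the FAP vector. FAP replicate 3 lay just above the highest control, giving a log2 fold change of 0.78 ± 0.25 (SE) and an adjusted p = 0.294. Leaving that library out gave 1.00 and an adjusted p = 0.0240. That fit called 248 of all 13305 tested genes, against 30 of 13373 with all libraries, so nothing particular to CDKN2B is read from it. CDKN1A, an inhibitor of CDK2 complexes, was at 85.8, 94.8 and 97.9 CPM with the control vector and 72.9, 73.5 and 81.3 CPM with the FAP vector, a log2 fold change of -0.29 ± 0.10 (SE) with an adjusted p = 0.332. The list as a whole had a median of 0.01.

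Of the 14 genes of SCF ligases and cyclin turnover, 10 were positive (median 0.15), 5 with FAP libraries above all controls and 2 below, where 7.96% and 7.99% of all tested genes were. USP28, a deubiquitinase that opposes FBXW7, was at 15.9, 11.6 and 12.9 CPM with the control vector and 21.4, 16.0 and 20.2 CPM with the FAP vector, which gives 0.52 ± 0.17 (SE) on the log2 scale and an adjusted p = 0.295. CKS2, a small binding partner of CDKs, was at 131, 121 and 133 CPM with the control vector and 188, 160 and 131 CPM with the FAP vector. FAP replicate 3 lay within the control range. On the log2 scale CKS2 differed by 0.31 ± 0.12 (SE), with an adjusted p = 0.361. Leaving out FAP replicate 3 gave 0.44 and an adjusted p = 0.00812, in the fit that called 248 of 13305 tested genes.

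The 9 genes of CDK phosphorylation had a median of 0.00. Among them the inhibitory kinases PKMYT1 and WEE1 were at 0.58 and 0.25 (adjusted p = 0.550 and 0.616). Of 13 tested other cyclins and kinases, 11 were positive (median 0.12), with CDK5 and CCNG1 at 0.31 and 0.30 (adjusted p = 0.458 and 0.460). The 8 substrates of cyclin E and CDK2 had a median of -0.02, with the DNA repair gene NBN at 0.14 and CDKN1B, an inhibitor of CDK2 complexes, at -0.17 (adjusted p = 0.684 and 0.751). The 13 genes of growth signals upstream of the D cyclins had a median of 0.07, with TCF7L2, a transcription factor of the Wnt pathway, at 0.29 (adjusted p = 0.504).

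**Figure D5:**
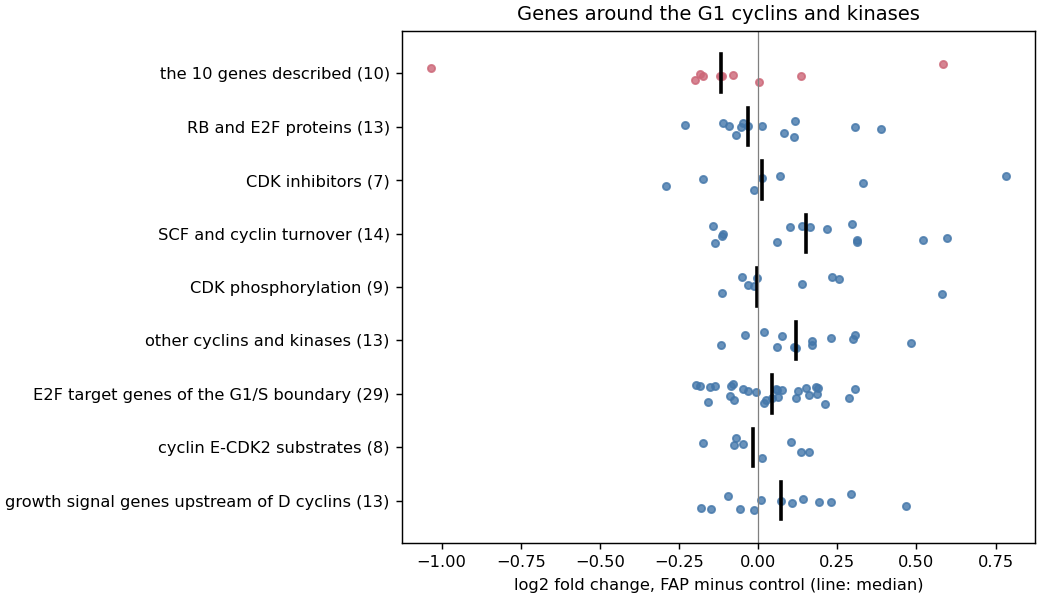
Log2 fold change of FAP minus control (x axis) of every tested gene of 8 lists and of the 10 genes described (rows, with the number of genes). Points are genes, spread vertically for visibility, and black lines are medians. CCNE2, at -1.03, is the lowest point, and the list medians lie between -0.03 and 0.15.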

How the data were processed

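Raw read counts per Entrez gene, as deposited, were made by the authors with HISAT2, featureCounts and Subread on GRCh38, per the submitters' processing notes. Not given in the sources used here are versions, the strand setting, how multiply aligned reads were treated and whether molecular identifiers were used. If they were not, PCR copies are counted as reads. Groups and replicate numbers came from the labels. Of 28395 IDs, 27745 matched a RefSeq symbol (GRCh38.p14).

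Counts were fitted with edgeR 4.0.16 in R 4.3.3: filterByExpr (minimum count 10, minimum total 15), TMM, two-sided quasi-likelihood F test of FAP minus control, Benjamini-Hochberg adjustment over 13373 genes, threshold 0.05. A standard error is the log2 fold change divided by the square root of F. Correlations used log2 CPM with a prior count of 2. Named genes are the 10 members, FAP, neighbours of CCNE2, the 2 members of each list with the smallest p and the 5 genes most like CCNE2 by each measure. Cell type markers (SOX9, ACAN, COL2A1, KRT8, KRT18, EPCAM, CDH1, KRT19, CD68, PTPRC and CDH5) were named after their values were seen. So were genes sharing exons with members (TSPAN31 and LTO1). The members and lists were chosen with earlier results of these data known. Alternatives were DESeq2 1.42.0, limma-voom (limma 3.58.1), other scalings and filters, FAP left out, a block for the replicate number, and leaving out each library. The edgeR fit was tested on simulated data. Protein comparisons were not run. The result of 1 gene that the naming rule takes in is not reported here by name, but counts and medians include it.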

Additional observations from a re-analysis of the deposited data

How the results depend on the processing

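CCNE2, whose value chose the genes and is a description here too, had log2 fold changes from -1.14 to -0.90 under the 14 alternatives. The ratio of CCNE2 to CCNE1 in FAP libraries, as a fraction of that in controls, was 0.561, 0.529 to 0.598 with each library left out and 0.599 with counts thinned to the smallest library. Signs changed with single libraries left out for CCND1 (-0.21 to 0.040, positive without FAP replicate 1) and for FBXW7 (-0.10 to 0.10, negative without control replicate 3, at -0.09, and without FAP replicate 3), and the other 7 uncalled members kept theirs. With the 10 CPM filter CCND2 was not tested. The number of genes called over the whole table was 30, against 82 by DESeq2, 152 with no low-count filter, 19 with library totals in place of TMM (13 higher and 6 lower, against 13 and 17) and 3 to 248 with a library left out (3 without control replicate 3, 248 without FAP replicate 3). Among the list genes the calls with a library left out ran from 0 to 2, the 2 being CDKN2B and CKS2 without FAP replicate 3. The cause was not tested. The replicate numbers did not pair the libraries (correlations of deviations between same-numbered libraries of -0.0039, 0.0203 and -0.0041). With the replicate number as a block 44 genes were called, and CCNE2 had -1.04. Counting error limits CCND2 most, at 23 to 92 counts.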
